A study of Homo sapiens with 6 samples.

Results

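The MYC, MAX and MXD network was followed through 10 genes, MYC, MYCL, MAX, MXD1, MXD3, MXD4, MXI1, MNT, MLX and MGA, out of 63563 genes in the deposited gene table. They were chosen by name, as the rows whose symbol is one of these 10, and none was chosen for its values; MXD4 is listed there together with the microRNA gene MIR4800. All 10 passed the filter on low values, which asked for at least 1 FPKM (fragments per kilobase of transcript and M fragments) in at least 3 of the 6 libraries. MYCL met it through the 3 EV libraries and 1 OVER43 library. The RNA-seq libraries are of poly(A) RNA of RKO, a line grown from a human colorectal carcinoma, in 2 groups of 3 libraries. OVER43 cells were stably transfected with pcDNA3.1 carrying Cx43, the gap junction protein encoded by GJA1, and are labelled as Cx43 overexpression. EV cells carried the empty pcDNA3.1 vector and are labelled WT. Both groups therefore hold the vector backbone, and the labels do not say whether a group is 1 clone or whether its libraries came from separate cultures, so p-values measure the spread between these libraries.

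The proteins of this network bind DNA through a basic helix-loop-helix and leucine zipper. MYC and MYCL need MAX as partner to bind the E-box, CACGTG, where they recruit acetyltransferases and raise transcription of growth genes. MXD1, MXD3, MXD4, MXI1 and MNT pair with the same MAX on the same site and recruit the SIN3 and histone deacetylase corepressor. MGA, the largest protein of the network, also pairs with MAX and brings a Polycomb complex. MLX is a parallel hub that takes MondoA or ChREBP as partner and responds to sugar phosphates. In colorectal cancer cells MYC is best known as a target of β-catenin and TCF.

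The E-box sequences were looked up first, since the proteins compete for them. CACGTG reads the same on both strands, and was searched in RefSeq promoter windows of GRCh38.p14 that run from 250 bases before to 50 bases after each gene's start. Of 35116 windows, 2548 held it (7.26%), and among the 8992 tested genes with a window, 1177 did (13.1%). A window was at hand for 9 of the 10 network genes, and 3 held the E-box: MXD4, MNT and MLX. The stretches are shown because they place the network's own site at genes of the network, with the E-box in capitals, 5′ to 3′ on the gene's strand. They lie at chr4:2262322-2262359 (minus strand) for MXD4, at chr17:2401228-2401273 (minus strand) for MNT and at chr17:42567030-42567075 (plus strand) for MLX. The E-box begins 238, 193 and 50 bases before the start of MXD4, MNT and MLX.
MXD4: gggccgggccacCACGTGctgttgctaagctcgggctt
MNT: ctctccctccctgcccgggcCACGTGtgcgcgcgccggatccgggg
MLX: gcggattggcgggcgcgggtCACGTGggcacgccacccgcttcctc

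A second set shows the site at target genes described below, which were picked by log2 fold change as well as by sequence. IPO4 (chr14:24188820-24188865, minus strand) and LDHA (chr11:18394358-18394403 and chr11:18394456-18394501, plus strand) are MYC-induced targets. ARRDC4 (chr15:97960473-97960518, plus strand) and TXNIP (chr1:145996631-145996687, minus strand) are targets of the Mondo and MLX pair. Capitals again mark CACGTG, except in TXNIP. There they mark the letters given in the pattern CACGNG, 5 further bases and CACGNG again, a pair of E-box-like sites that was searched on both strands and that 20 of the 35116 windows held (0.0570%). A match describes letters in the window and not a bound site.
IPO4: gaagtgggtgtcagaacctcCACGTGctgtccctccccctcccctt
LDHA, first site: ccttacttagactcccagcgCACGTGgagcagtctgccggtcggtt
LDHA, second site: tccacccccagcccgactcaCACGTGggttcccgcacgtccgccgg
ARRDC4: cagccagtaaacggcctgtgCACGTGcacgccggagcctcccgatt
TXNIP: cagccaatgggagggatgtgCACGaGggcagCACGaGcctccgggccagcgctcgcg

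Across the series, the OVER43 libraries held GJA1 at 23.2, 26.0 and 24.9 FPKM, and those of EV at 0.2999, 0.351 and 0.394 FPKM. Low FPKM values stepped by the worth of 1 fragment only approximately, with 71.8% to 78.1% falling within 0.1 of an integer multiple. That spacing put the libraries near 46.7 to 48.9 M fragments in OVER43 and 42.6 to 51.4 M in EV. The FPKM sum of a library lay between 554456 and 566947 in OVER43 and between 500546 and 509175 in EV. Of 7 epithelial markers 4 reached 1 FPKM, KRT8, KRT18, EPCAM and CDX2, while CDH1 was near 0 with 0.258 ± 0.117 FPKM in OVER43 and 0.231 ± 0.147 FPKM in EV (SD, n = 3 each). None of 7 fibroblast and 5 endothelial markers reached 1 FPKM. Of 6 leukocyte markers only CD68 reached it, whose locus is shared with EIF4A1. The fibroblast markers summed to 0.241 to 0.593 FPKM in OVER43 libraries and 0.361 to 1.11 FPKM in EV libraries, with overlap. The other sums did not overlap. The endothelial sum was 0.260 to 0.437 FPKM in OVER43 and 0.120 to 0.186 FPKM in EV, the epithelial one 199 to 204 FPKM in OVER43 and 156 to 163 FPKM in EV, and the leukocyte one 368 to 387 FPKM in OVER43 and 405 to 421 FPKM in EV. The part of these markers in the results was not tested. PTPRC and CD3E were listed at 0.

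Of the 10 network genes, 4 differed between OVER43 and EV cells, MAX and MGA being higher and MXI1 and MYCL lower in OVER43. MAX stood 1.48-fold higher, MXI1 at 0.656 and MYCL at 0.454 of its level in EV, as ratios of mean FPKM. MYC itself was nearly level, with 192.5 ± 7.27 FPKM in OVER43 and 187.2 ± 6.48 FPKM in EV (SD, n = 3 each). The test was limma on log2(FPKM + 1) over 12205 genes with Benjamini-Hochberg adjustment, and a gene was called at an adjusted p under 0.05. By that rule 45.9% of all tested genes were called, 28.4% higher and 17.5% lower in OVER43, so 4 of 10 is near the background. Of all calls 61.8% were higher in OVER43, a share that came to 51.2% with TMM or quantile scaling and to 34.3% with equal FPKM sums. The libraries of the 2 groups did not overlap for 7 of the 10, against 56.3% of all tested genes. The median log2 fold change was 0.00 over the network genes and 0.05 over all tested genes. In bulk libraries, fewer cells that express a gene and less of its RNA per cell cannot be told apart.

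**Figure D1:**
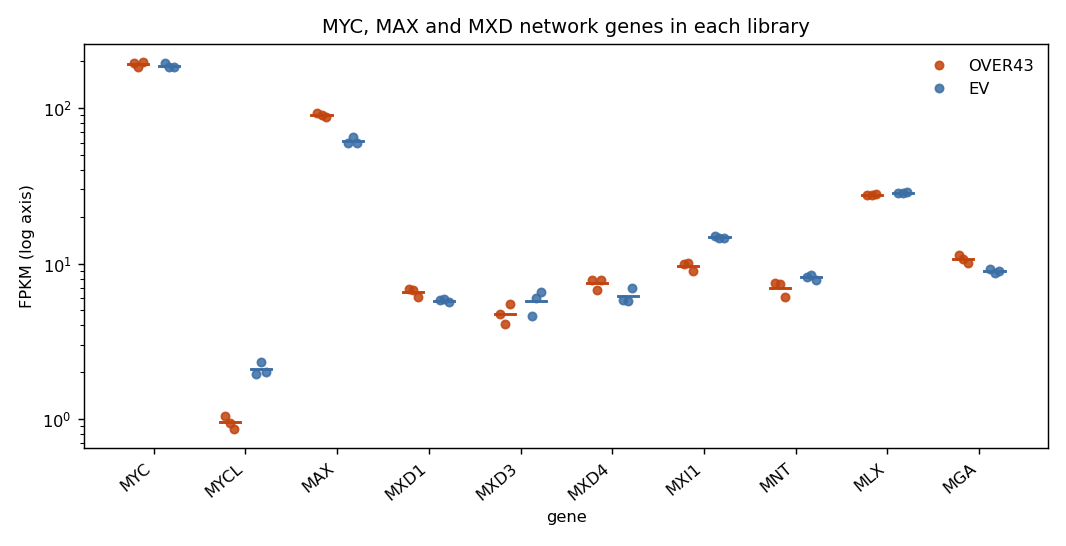
FPKM of each network gene on a log axis, with 1 point per library (OVER43 in orange, left, and EV in blue, right) and a bar at each group's mean. MYC lies above 180 FPKM in all 6 libraries, MAX is higher in the OVER43 libraries, and MXI1 and MYCL are lower in them.

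MYC, the activator that gives the network its name, was the most abundant of the 10 transcripts in every library. It read 196, 184 and 197 FPKM in OVER43 and 195, 184 and 183 FPKM in EV. The groups overlapped, with only the lowest OVER43 library within the range of the EV libraries. The log2 fold change was 0.04 (SE 0.039, limma adjusted p = 0.429). This placed MYC above 96.9% of tested genes in OVER43 and 97.4% in EV. Its direction rested on scaling: it was -0.018 with TMM scaling (adjusted p = 0.727), -0.16 with quantile scaling (adjusted p = 0.00698) and -0.10 with equal FPKM sums (adjusted p = 0.0378). The gene lies on chromosome 8 at 128747680 to 128753674. Coordinates of genes are hg19 positions as in the deposited tables, while those of the sequences above are of GRCh38.p14.

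MYCL, the L-MYC paralogue best known from small cell lung cancer, was the least abundant member. It read 1.05, 0.941 and 0.855 FPKM in OVER43 and 1.94, 2.33 and 1.9998 FPKM in EV, and every OVER43 library lay below every EV library. The log2 fold change was -0.66 (SE 0.113, limma adjusted p = 0.00197). The authors' deposited table gives a log2 ratio of EV over OVER43 of 1.14 with q = 0.00226. MYCL lies on chromosome 1 at 40361098 to 40367928. Among 110 tested genes whose locus starts within 5 Mb, 108 had a log2 fold change at or above that of MYCL, and their median was 0.08. The third paralogue, MYCN, averaged 0.0585 ± 0.0241 FPKM in OVER43 and 0.0465 ± 0.0264 FPKM in EV (SD, n = 3 each), under the filter.

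MAX, the partner shared by activators and repressors, showed the largest rise of the 10. It read 93.7, 90.8 and 88.1 FPKM in OVER43 and 59.3, 64.8 and 60.1 FPKM in EV, with no overlap between the groups. The log2 fold change was 0.56 (SE 0.045, limma adjusted p = 5.28e-05). In the authors' deposited table the log2 ratio of EV over OVER43 is -0.566 with q = 0.168, so Cuffdiff did not call it. The gene value of MAX includes MAX-209, a transcript with no coding part that is described below. MAX-209 averaged 30.3 FPKM in OVER43 and 15.1 FPKM in EV, where the whole gene averaged 90.9 and 61.4 FPKM. The deposited locus of MAX, on chromosome 14 at 65381079 to 65569413, is a bundle that also holds CHURC1, FNTB and RAB15. Neighbouring genes moved the same way: of 53 tested genes within 5 Mb of MAX, 32 were higher and 5 lower in OVER43, with a median log2 fold change of 0.37, and 13 changed by as much as MAX or more. The median over the 431 tested genes of chromosome 14 was 0.43. The part of the chromosome in the rise of MAX was not tested.

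Of the 5 genes of the MXD and MNT repressors, 1 fell and 4 were not called. MXI1, also known as MXD2, read 9.92, 10.1 and 9.01 FPKM in OVER43 and 15.0, 14.6 and 14.6 FPKM in EV. The EV libraries lay close together and above all OVER43 libraries, and the log2 fold change was -0.56 (SE 0.063, limma adjusted p = 0.000254). The authors' deposited table gives a log2 ratio of EV over OVER43 of 0.607 with q = 0.000547. MXI1 lies on chromosome 10 at 111967363 to 112047123, where the median of 23 tested genes within 5 Mb was -0.16, with 2 higher and 10 lower in OVER43. Of these 23 genes, 21 had a log2 fold change at or above that of MXI1. The part of the neighbourhood in it was not tested.

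MXD1, a repressor that rises as cells leave the cycle and differentiate, read 6.89, 6.75 and 6.10 FPKM in OVER43 and 5.79, 5.87 and 5.63 FPKM in EV. Its libraries did not overlap, but the log2 fold change of 0.16 was not called (SE 0.075, limma adjusted p = 0.109). MXD4, whose window holds the E-box shown above, read 7.85, 6.79 and 7.89 FPKM in OVER43 and 5.80, 5.70 and 6.96 FPKM in EV. The lowest OVER43 library lay within the range of EV, and the log2 fold change was 0.25 (SE 0.096, limma adjusted p = 0.0620). MXD3, the repressor of the family associated with dividing cells, read 4.75, 4.06 and 5.50 FPKM in OVER43 and 4.57, 5.98 and 6.55 FPKM in EV. It varied most from library to library, with a log2 fold change of -0.21 (SE 0.137, limma adjusted p = 0.243). MNT, the broadly expressed repressor that opposes MYC in proliferating cells, read 7.50, 7.41 and 6.08 FPKM in OVER43 and 8.17, 8.42 and 7.84 FPKM in EV. All OVER43 libraries lay below those of EV, and the log2 fold change was -0.20 (SE 0.089, limma adjusted p = 0.102). The loci of MXD1, MXD3 and MNT are bundles shared with SNRNP27, with PRELID1 and RAB24, and with an unnamed gene, and that of MLX is shared with PSMC3IP.

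MGA, the scaffold that carries a T-box besides its MAX-binding domain, read 11.4, 10.7 and 10.1 FPKM in OVER43 and 9.22, 8.74 and 8.90 FPKM in EV. The groups did not overlap, and the log2 fold change of 0.24 was called (SE 0.068, limma adjusted p = 0.0216). That call was lost with TMM scaling (0.18, adjusted p = 0.0610), with equal FPKM sums (0.10, adjusted p = 0.265) and with no filter (adjusted p = 0.0598). It was also lost without OVER43 library 0 (adjusted p = 0.0816), OVER43 library 1 (0.0551), EV library 1 (0.0629) or EV library 2 (0.0514), all by limma. The authors' deposited table gives q = 0.0612. MLX, the hub of the sugar-responsive branch, read 27.7, 27.6 and 28.1 FPKM in OVER43 and 28.3, 28.5 and 28.7 FPKM in EV. Its groups lay side by side without overlap, at a log2 fold change of only -0.03 (SE 0.041, limma adjusted p = 0.531).

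**Figure D2:**
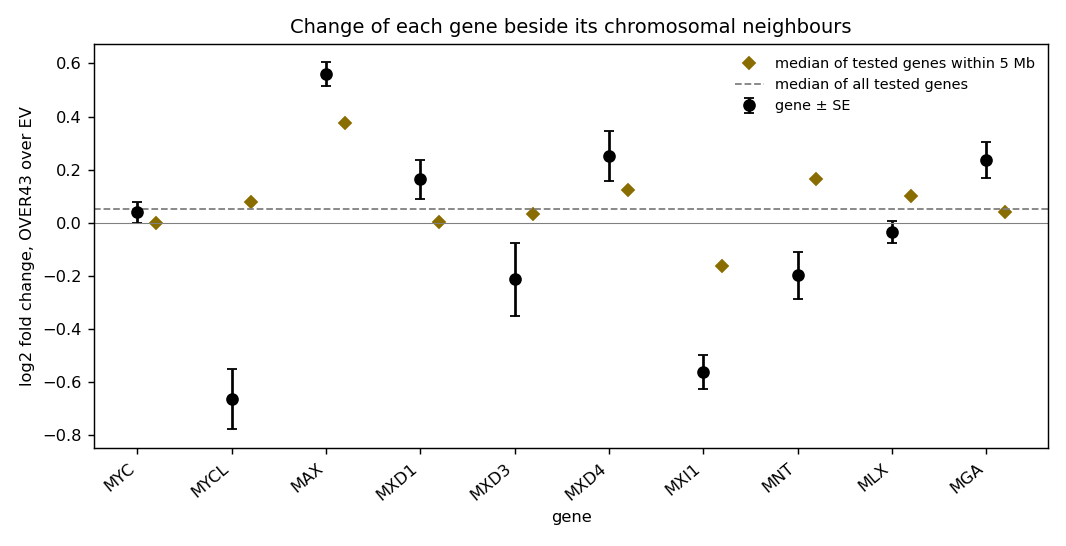
Log2 fold change of OVER43 over EV for each network gene (black, with its standard error) beside the median of the tested genes within 5 Mb of it (diamonds) and the median of all tested genes (dashed). MAX, at 0.56, stands beside a neighbour median of 0.37, whereas MYCL, at -0.66, stands beside one of 0.08.

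FPKM are scaled by length, so levels could be ordered among the genes. In OVER43 the order was MYC, MAX, MLX, MGA, MXI1, MXD4, MNT, MXD1, MXD3 and MYCL. In EV it was MYC, MAX, MLX, MXI1, MGA, MNT, MXD4, MXD1, MXD3 and MYCL. Among neighbours in the order, the libraries of MGA and MXI1, of MXD4 and MNT and of MNT and MXD1 overlapped in OVER43. In EV, MXI1 lay clear above MGA, and the neighbours that overlapped were MXD4 with MXD1 and MXD1 with MXD3. All other neighbours in the order were separated in their group. Genes further apart in the order were not compared.

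Within each library the balance between MYC and its partner was lower in OVER43. MYC exceeded MAX by 2.09, 2.03 and 2.24 times in the OVER43 libraries and by 3.28, 2.84 and 3.05 times in the EV libraries. The 5 repressor transcripts MXD1, MXD3, MXD4, MXI1 and MNT summed to 36.9, 35.1 and 34.6 FPKM in OVER43 and to 39.3, 40.6 and 41.6 FPKM in EV. Set against MAX, the summed repressors stood at 0.391 ± 0.00365 in OVER43 and 0.661 ± 0.0333 in EV (SD, n = 3 each). MYC set against the summed repressors stood at 5.42 ± 0.249 in OVER43 and 4.63 ± 0.288 in EV (SD, n = 3 each). MXI1 made up 27.2% ± 1.39 of the repressor sum in OVER43 and 36.4% ± 1.53 in EV (SD, n = 3 each). None of these ratios overlapped between the groups. A factor that scales a whole library cancels in them, and they follow from the gene values above. They are RNA levels and do not measure dimers. The MAX value includes MAX-209, a transcript annotated with a retained intron and no coding part. MAX-209 averaged 30.3 FPKM in OVER43 and 15.1 FPKM in EV, so the ratios to MAX are not ratios to its coding RNA alone.

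Transcripts of the network genes were then compared in the deposited isoform table. It held 90 entries of the 10 genes besides those that span a whole gene, of which 30 averaged at least 1 FPKM in a group. Of the 27 tested entries, 3 were called (MAX-204, MYC-201 and MXD4-205, the last of which passed the filter through OVER43 alone), against 14.6% of 31220 tested entries in all, and 9 did not overlap between groups, against 36.1%. None of the 5 MYCL transcripts reached 1 FPKM on average, so its change is known at the gene level alone.

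MAX is made in a long and a short protein form. MAX-204, with 151 codons, read 34.7, 32.3 and 36.2 FPKM in OVER43 and 27.5, 23.4 and 24.2 FPKM in EV. Its groups did not overlap and the log2 fold change was 0.45 (SE 0.075, limma adjusted p = 0.0153). The call was lost with quantile scaling (adjusted p = 0.0503), with no filter (0.0958), without OVER43 library 0 (0.0571) and without OVER43 library 2 (0.0547), all by limma. MAX-205, with 160 codons, read 8.84, 7.15 and 3.66 FPKM in OVER43 and 3.21, 4.49 and 4.63 FPKM in EV. Here the groups overlapped, at a log2 fold change of 0.51 (SE 0.298, limma adjusted p = 0.327).

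The second most abundant MAX entry was MAX-209, annotated as a transcript with a retained intron. At 327 bases it is much shorter than MAX-204, at 1973 bases, so fewer fragments stand behind each FPKM of it. It read 31.5, 34.6 and 24.99 FPKM in OVER43 and 8.70, 18.1 and 18.5 FPKM in EV. All OVER43 libraries lay above those of EV, but EV library 0 stood far below its fellows and the log2 fold change of 1.02 was not called (SE 0.297, limma adjusted p = 0.0772). With the filter of 5 FPKM it was called (limma adjusted p = 0.0437). MAX-209 made up 33.3% of the gene's FPKM in OVER43 and 24.4% in EV, and MAX-204 made up 37.9% and 40.9%. MAX-216, with 103 codons, showed no separation, with 10.7 ± 2.88 FPKM in OVER43 and 11.5 ± 3.83 FPKM in EV (SD, n = 3 each). MAX-201, with 96 codons, was separated between groups but not called (log2 fold change 0.62, limma adjusted p = 0.0960). MAX-202, with 134 codons, overlapped with 1.13 ± 0.299 FPKM in OVER43 and 0.883 ± 0.366 FPKM in EV (SD, n = 3 each).

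MYC RNA was carried mainly by a pair of coding entries. MYC-202, with 439 codons, read 142, 127 and 136 FPKM in OVER43 and 131, 125 and 126 FPKM in EV, with overlap (log2 fold change 0.08, limma adjusted p = 0.307). MYC-205, with 453 codons, averaged 47.3 ± 4.24 FPKM in OVER43 and 45.5 ± 3.55 FPKM in EV (SD, n = 3 each). MYC-202 made up 70.1% of the gene's FPKM in OVER43 and 68.1% in EV. The minor MYC-201, with 257 codons, was lower in OVER43, at 2.52, 3.31 and 1.35 FPKM, than in EV, at 5.53, 6.63 and 4.83 FPKM. Its log2 fold change of -1.01 was called by a small margin (SE 0.247, limma adjusted p = 0.0479), and the call was lost in 8 of the alternatives tried. These include leaving out any library but OVER43 1, with adjusted p of 0.108 without OVER43 library 0, 0.0660 without OVER43 library 2, and 0.116, 0.134 and 0.0770 without EV library 0, 1 or 2, by limma. MYC-204, with 59 codons, averaged 3.50 ± 0.362 FPKM in OVER43 and 3.98 ± 0.514 FPKM in EV (SD, n = 3 each).

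**Figure D3:**
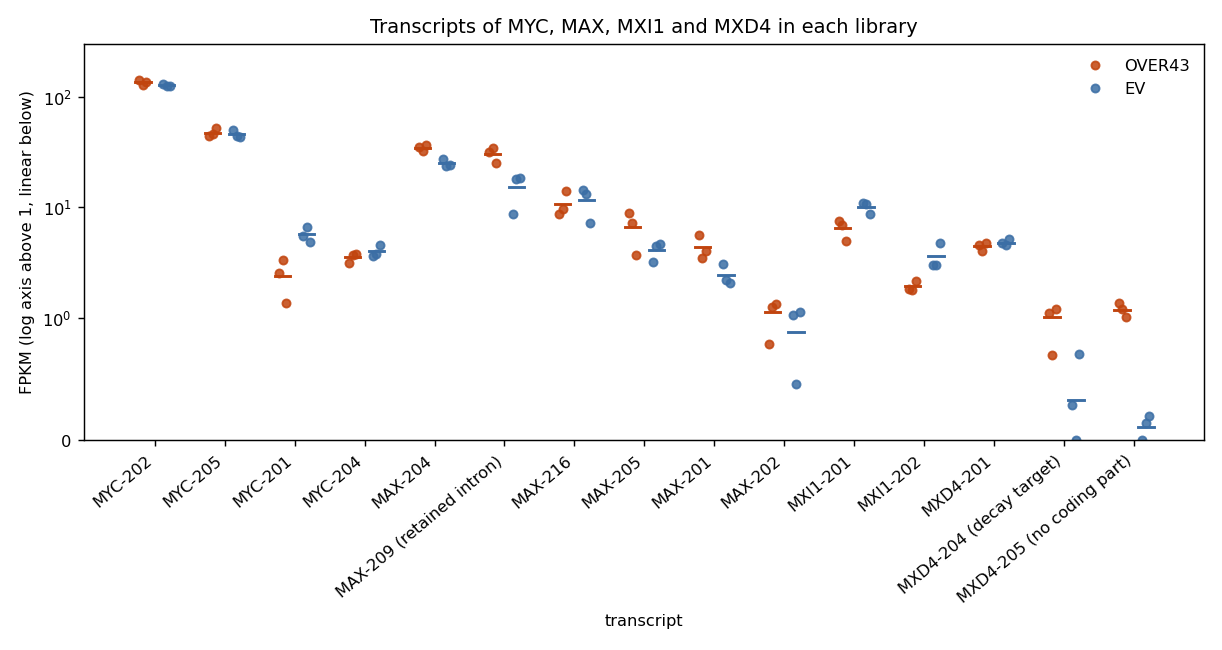
FPKM of the transcripts of MYC, MAX, MXI1 and MXD4 that average at least 1 FPKM in a group (log axis above 1, linear below), 1 point per library, with OVER43 in orange at the left, EV in blue at the right and bars at the means. MAX-204 and MAX-209 lie higher in OVER43, MYC-202 and MYC-205 overlap, and both MXI1 transcripts lie lower in OVER43.

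The libraries of both abundant MXI1 transcripts lay lower in OVER43 without overlap, and neither was called with the settings used throughout. MXI1-201, with 228 codons, read 7.49, 6.83 and 4.91 FPKM in OVER43 and 10.9, 10.7 and 8.65 FPKM in EV (a log2 fold change of -0.59, limma adjusted p = 0.0676). It was called with equal FPKM sums (limma adjusted p = 0.0452), with the filter of 5 FPKM (0.0378) and with the replicate block (0.0442). Whether column numbers pair the libraries is not known. MXI1-202, with 295 codons, read 1.83, 1.79 and 2.16 FPKM in OVER43 and 3.004, 2.98 and 4.76 FPKM in EV (-0.63, limma adjusted p = 0.0771). Their shares of the gene were 65.9% and 20.03% in OVER43 and 68.4% and 24.3% in EV.

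Of the 5 MXD4 entries, 3 averaged at least 1 FPKM in a group. MXD4-201, with 209 codons, averaged 4.41 ± 0.383 FPKM in OVER43 and 4.78 ± 0.290 FPKM in EV (SD, n = 3 each), with a log2 fold change of -0.10 (limma adjusted p = 0.576). MXD4-205, an entry with no coding part, read 1.34, 1.19 and 1.01 FPKM in OVER43 and 0, 0.138 and 0.2008 FPKM in EV. Since it passed the filter through its OVER43 libraries alone, its values are given as a description. Its call was lost with a pseudocount of 0.1, with the replicate block and without EV library 0 or 1. With TMM, with equal FPKM sums, with the filter of 5 FPKM and without any of the OVER43 libraries it did not enter the test. MXD4-204, a target of nonsense-mediated decay, averaged 1.00 ± 0.268 FPKM in OVER43 and 0.331 ± 0.356 FPKM in EV (SD, n = 3 each). MXD4-201 made up 58.7% of the gene's FPKM in OVER43 and 78.0% in EV.

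The remaining genes showed no called transcript. MNT-201, with 582 codons, was separated between groups with 4.11 ± 0.343 FPKM in OVER43 and 4.95 ± 0.236 FPKM in EV (SD, n = 3 each; limma adjusted p = 0.188). MXD1-201, with 221 codons, averaged 5.83 ± 0.459 FPKM in OVER43 and 5.16 ± 0.0218 FPKM in EV (SD, n = 3 each; limma adjusted p = 0.315). MLX-203, with 244 codons, overlapped with 18.4 ± 1.71 FPKM in OVER43 and 18.1 ± 1.32 FPKM in EV (SD, n = 3 each). Estimates for MGA were unstable from library to library: MGA-211, with 3065 codons, read 0.0117, 2.92 and 3.69 FPKM in OVER43 and 3.05, 3.29 and 3.45 FPKM in EV. MGA-201, of the same coding length, read 3.97, 1.54 and 0.00446 FPKM in OVER43 and 0.259, 0.762 and 0.214 FPKM in EV. In OVER43 the library lowest for MGA-211 was the highest for MGA-201, and the highest for MGA-211 was the lowest for MGA-201.

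The other transcripts over the naming limit were 5 of MLX and MNT, 2 of MXD3 and 3 of MGA. MLX-201, MLX-202, MLX-209, MNT-205 and MNT-209 overlapped between the groups, with log2 fold changes from -0.26 to 0.04. MXD3-208 and MXD3-203, with 206 codons each, overlapped too. MGA-202 and MGA-205 also overlapped. MGA-207 read 2.38, 0.908 and 1.76 FPKM in OVER43, while the EV libraries held 0.000208, 0.00116 and 0.0463 FPKM, and it did not pass the filter.

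Entries that span a whole gene with its introns hold reads outside the spliced transcripts. They reached a mean of 0.1 FPKM for 7 of the 10 genes, and 2 of the 7 did not overlap between groups, against 42.9% of 7439 such entries. The MAX entry read 0.194, 0.216 and 0.203 FPKM in OVER43 and 0.151, 0.141 and 0.151 FPKM in EV, higher in every OVER43 library, as its gene value was. The MXD1 entry read 0.413, 0.399 and 0.385 FPKM in OVER43 and 0.515, 0.526 and 0.492 FPKM in EV, against the direction of its gene value. The MYC entry overlapped, at 4.48, 4.17 and 4.04 FPKM in OVER43 and 4.47, 4.24 and 3.89 FPKM in EV. That of MXI1 lay close to 0, under the 0.1 FPKM limit and outside the 7 counted. It stood lower in OVER43, with 0.0278 ± 0.00716 FPKM, than in EV, with 0.0518 ± 0.00317 FPKM (SD, n = 3 each). These are 0.285% and 0.351% of the gene's summed FPKM.

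The 2 tested non-coding RNAs beside MYC were lower in OVER43. Of 6 listed, 2 were tested and both fell by limma, also at an unadjusted p under 0.05, with 0 higher. Of all tested genes 17.5% were lower. With no filter, 4 of the listed RNAs were tested and 1 was called lower, against 5.11% of all tested genes. PVT1, the long RNA downstream of MYC that is often gained with it in cancer, read 49.98, 46.4 and 45.8 FPKM in OVER43 and 58.1, 65.2 and 63.1 FPKM in EV. The groups were well apart (log2 fold change -0.38, SE 0.055, limma adjusted p = 0.000857). CASC8 averaged 1.61 ± 0.164 FPKM in OVER43 and 2.71 ± 0.595 FPKM in EV (SD, n = 3 each; log2 fold change -0.50, limma adjusted p = 0.0167). The call of CASC8 was lost with no filter (adjusted p = 0.0891) and without OVER43 library 0 (0.0545), both by limma. Among 33 tested genes within 5 Mb of MYC, 6 were higher and 9 lower, with a median of 0.00.

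Partners and cofactors were described next from lists of known members. At the deposited scaling their counts are to be read against 28.4% higher and 17.5% lower among all tested genes. Those shares were 22.6% and 21.5% with TMM, 21.0% and 19.9% with quantile scaling, and 15.3% and 29.3% with equal FPKM sums. Of 8 tested E-box factors of the same protein class outside the network, 3 were higher and 1 lower, with a median of 0.09, and 2 and 2 under each other scaling. TFAP4, itself known as a MYC target, averaged 18.7 ± 1.69 FPKM in OVER43 and 12.2 ± 0.658 FPKM in EV (SD, n = 3 each; log2 fold change 0.57, limma adjusted p = 0.000581). USF2, which binds the same E-box without MAX, rose by 0.31 (limma adjusted p = 0.000287). MITF, the melanocyte factor, fell to 0.827, 0.987 and 1.15 FPKM in OVER43, against 2.19, 2.64 and 2.15 FPKM in EV (-0.74, limma adjusted p = 0.00155). MITF lay near the filter limit and met it through the 3 EV libraries and 1 OVER43 library. The MLX partner MLXIP (MondoA) overlapped, with 18.3 ± 0.906 FPKM in OVER43 and 17.8 ± 1.07 FPKM in EV (SD, n = 3 each), and MLXIPL (ChREBP) was under the filter.

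Of the 17 genes of the SIN3 and histone deacetylase corepressor, which MXD proteins recruit, 6 were higher and 2 lower, with a median of 0.15, but 4 and 5 with equal FPKM sums. ING2, a reader of methylated histone H3, rose by 0.55 (limma adjusted p = 0.00243) and BRMS1L by 0.40 (0.00221). SUDS3 fell by 0.31 (limma adjusted p = 0.00587) and the deacetylase HDAC2 by 0.19 (0.0170) on the log2 scale. The scaffold SIN3A, which the MXD proteins touch directly, averaged 21.3 ± 0.661 FPKM in OVER43 and 21.9 ± 0.601 FPKM in EV (SD, n = 3 each). HDAC2 was no longer called with no filter (limma adjusted p = 0.0990), without OVER43 library 2 (0.0543), EV library 0 (0.0531) or EV library 1 (0.0598).

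Of 10 tested partners of MGA in its Polycomb complex, 5 were higher and none was lower by limma, with a median of 0.16. At an unadjusted p under 0.05 the counts were 5 and 0. They were TFDP1, CBX3, L3MBTL2, E2F6 and CBX1. TFDP1, the partner of E2F factors, averaged 101.6 ± 1.66 FPKM in OVER43 and 74.2 ± 3.36 FPKM in EV (SD, n = 3 each; log2 fold change 0.45, limma adjusted p = 8.45e-05). CBX3, a heterochromatin protein, rose by 0.40 (limma adjusted p = 3.37e-05). With equal FPKM sums the complex split evenly, with 2 higher and 2 lower.

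Of 15 tested MYC coactivators, 6 were higher and 1 lower, with a median of 0.14. The acetyltransferase gene KAT5 rose by 0.44 (limma adjusted p = 0.00715) and SMARCB1, a chromatin remodelling subunit that binds MYC, by 0.41 (0.000886). TRRAP, the scaffold of MYC-bound acetyltransferases, was lower by a small amount, with 22.5 ± 1.02 FPKM in OVER43 and 25.8 ± 1.05 FPKM in EV (SD, n = 3 each; log2 fold change -0.19, limma adjusted p = 0.0237). The call of TRRAP was lost with no filter (adjusted p = 0.0857) without OVER43 library 0 (0.0527), OVER43 library 2 (0.0710), EV library 0 (0.0757) or EV library 1 (0.0710), all by limma. That of KAT5 was lost with no filter (limma adjusted p = 0.0814). With equal FPKM sums 3 coactivators were higher and 2 lower.

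Of 18 genes described here that act on MYC protein stability, 10 were higher in OVER43 with the deposited scaling, and 5 to 8 under the 3 others. AURKA, the mitotic kinase that shields MYC proteins from FBXW7, rose by 0.40 (limma adjusted p = 0.000231). The ubiquitin ligase HUWE1 was called higher by 0.42 although its libraries overlapped (limma adjusted p = 0.0378), and the call was lost in 10 alternatives. Among them were leaving out OVER43 library 0 (0.116), OVER43 library 1 (0.106), EV library 0 (0.106) or EV library 1 (0.0891), and the 3 other scalings. FBXW7, the main ubiquitin ligase of phosphorylated MYC, averaged 11.05 ± 0.696 FPKM in OVER43 and 10.6 ± 0.295 FPKM in EV (SD, n = 3 each; limma adjusted p = 0.547).

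**Figure D4:**
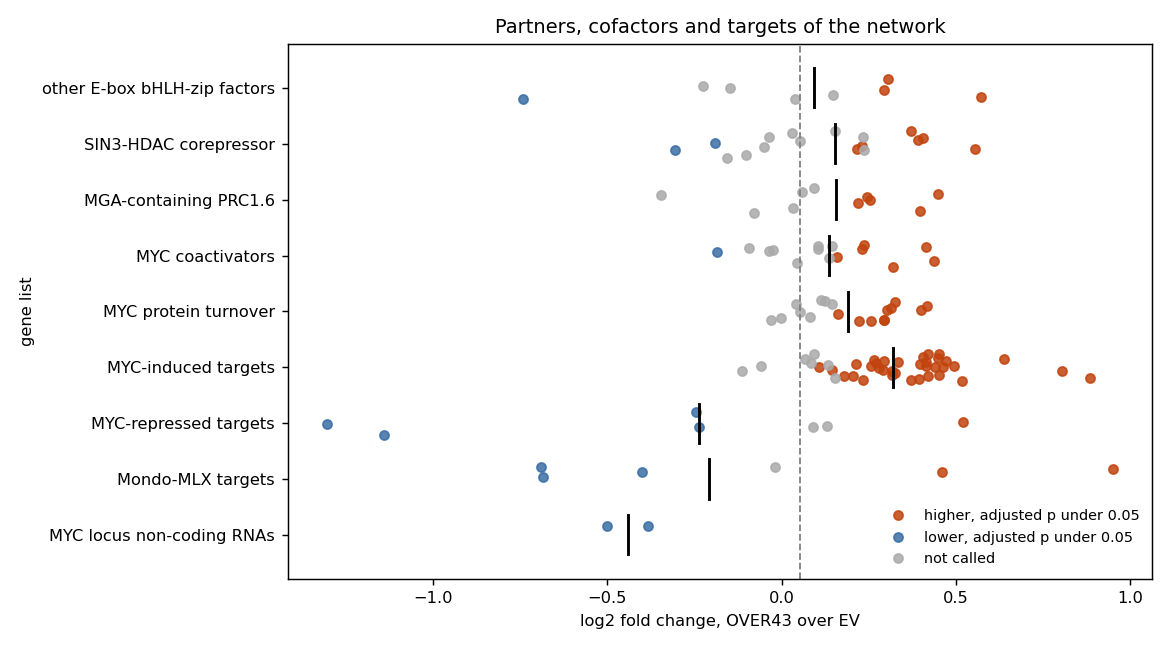
Log2 fold change of OVER43 over EV for each tested gene of each list, in orange where called higher, blue where called lower and grey otherwise, with a bar at the list's median and a dashed line at the median of all tested genes. The MYC-induced targets have their median at 0.32 and no gene called lower at the deposited scaling. HK2 (called lower) and TFAP4 (called higher), also known as MYC targets, are drawn in other lists.

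MYC-induced targets were higher in OVER43 by small amounts across most of the list. Of 46 listed, 42 were tested, 35 were called higher and none lower by limma, and 40 had a log2 fold change above 0. At an unadjusted p under 0.05 the counts were 37 higher and 1 lower. The median was 0.32 against 0.05 over all tested genes. Only 4 changed by 0.5 or more, and the range ran from -0.12 to 0.88. The libraries did not overlap for 38 of the 42, against 56.3% of all tested genes, of which 28.4% were called higher. With the filter of 5 FPKM, 36 of 41 targets were higher, against 35.4% of all genes tested, whose median was 0.08. The list was not matched to other genes for level. HK2, which MYC also induces, and TFAP4, also known as a MYC target, were kept in other lists and are not in these counts. HK2 was called lower and TFAP4 higher. Scaling moved the counts of the list: 30 were higher and 2 lower with TMM, 25 and 4 with quantile scaling, and 24 and 2 with equal FPKM sums. With no filter, 45 targets were tested, of which 26 were higher and 0 lower. Of all tested genes, the shares higher and lower were 22.6% and 21.5% with TMM and 21.0% and 19.9% with quantile scaling. They were 15.3% and 29.3% with equal FPKM sums and 7.43% and 5.11% with no filter. The medians of the targets were 0.26 with TMM, 0.18 with quantile scaling and 0.18 with equal sums. Those of all tested genes were 0.00, 0.02 and -0.08.

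The named targets show the size of these changes. IPO4, an importin that carries ribosomal proteins and histones into the nucleus, read 74.4, 74.4 and 79.0 FPKM in OVER43 and 42.2, 42.4 and 37.5 FPKM in EV (a log2 fold change of 0.88, SE 0.056, limma adjusted p = 1.66e-05). IPO4 lies on chromosome 14, as MAX does. NOP56, a core protein of the ribosomal RNA methylation complex, read 386, 390 and 412 FPKM in OVER43 and 233, 229 and 217 FPKM in EV (0.80, SE 0.039, limma adjusted p = 4.86e-06). In both genes every OVER43 library stood far above every EV library. LDHA, whose 2 E-boxes are shown above, averaged 806.0 ± 39.3 FPKM in OVER43 and 517.7 ± 20.4 FPKM in EV (SD, n = 3 each; 0.64). The printed MYC-induced stretches come from the E-box targets of largest log2 fold change, with chromosome 8 left out. IPO4 and LDHA were thus shown for their values as well as their sequence. Without the 3 targets on chromosome 14, 32 of 39 were higher, with a median of 0.31.

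Classical targets differed among themselves. CDK4, a cell cycle kinase, overlapped with 227.1 ± 7.85 FPKM in OVER43 and 216.6 ± 5.54 FPKM in EV (SD, n = 3 each; limma adjusted p = 0.152). PPAT, the first enzyme of purine synthesis, stood lower in OVER43, with 27.0 ± 0.824 FPKM, than in EV, with 29.3 ± 0.265 FPKM (SD, n = 3 each), and was not called (limma adjusted p = 0.0654). ODC1, which starts polyamine synthesis, and NCL, the nucleolar protein nucleolin, were both called higher, by 0.40 and 0.42. These 4 were picked after their values were seen, as long-known MYC targets.

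The E-box was found in the window of 19 of the 35 MYC-induced targets that have one (54.3%), against 13.1% of tested genes. Of those 19, 15 were higher in OVER43, and of the 16 without it, 15 were. Over all tested genes with a window, 39.2% of those with an E-box were higher and 12.9% lower, and 29.1% of those without were higher and 18.9% lower. Their median log2 fold changes were 0.12 with and 0.05 without the E-box. With equal FPKM sums the shares were 22.4% higher and 23.7% lower with the E-box, and 15.3% higher and 31.6% lower without. Genes with an E-box thus had the greater share of higher calls under each of the 4 scalings, while the balance of higher and lower changed with scaling. The 2 sets of genes were not matched for level, and no test was made.

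Targets repressed by MYC were more often called lower than higher. Of 12 listed, 7 were tested, of which 4 were lower and 1 higher, with a median of -0.24. Of all tested genes 17.5% were lower and 28.4% higher, with a median of 0.05. NDRG1, a differentiation and stress gene, read 25.05, 13.2 and 11.3 FPKM in OVER43 and 33.2, 39.0 and 48.7 FPKM in EV. The groups did not overlap but spread widely (a log2 fold change of -1.30 with SE 0.313, limma adjusted p = 0.0192). The call was lost with no filter (limma adjusted p = 0.0798), without OVER43 library 1 (0.0722) and without EV library 1 (0.0652). CLU, a secreted chaperone, averaged 44.4 ± 5.42 FPKM in OVER43 and 99.1 ± 12.4 FPKM in EV (SD, n = 3 each; -1.14, limma adjusted p = 0.00017). CDKN1A, the p21 cell cycle inhibitor, and GADD45A, a DNA damage gene, each fell by 0.24 on the log2 scale. The count of 4 lower genes was the same under all 4 scalings, where 17.5% to 29.3% of all tested genes were lower. With no filter it was 3 of 12, against 5.11% of all tested genes. It was 3 of 7 with the replicate block, without OVER43 library 1 and without EV library 1. FTH1, the ferritin heavy chain, was called higher by 0.52 (limma adjusted p = 0.0323), a call lost with TMM, quantile and equal-sum scaling. It was also lost when any 1 OVER43 library was left out (adjusted p of 0.0664 to 0.101) and without EV library 1 (0.0796), by limma.

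Targets of the Mondo and MLX pair split. Of 6 tested, 3 were lower and 2 higher, with a median of -0.21, and with equal FPKM sums 4 were lower and 2 higher. Of all tested genes, 17.5% were lower and 28.4% higher, and with equal FPKM sums 29.3% and 15.3%. PFKFB3 was not called, with 19.9 ± 0.163 FPKM in OVER43 and 20.2 ± 0.250 FPKM in EV (SD, n = 3 each). TXNIP, the thioredoxin-binding arrestin that is the best known of them, read 2.86, 3.10 and 3.81 FPKM in OVER43 and 5.48, 5.94 and 6.09 FPKM in EV (a log2 fold change of -0.69, SE 0.103, limma adjusted p = 0.00104). Its paralogue ARRDC4, with CACGTG in its window where TXNIP has the E-box-like pair, read 2.90, 2.57 and 2.09 FPKM in OVER43 and 4.45, 4.60 and 4.86 FPKM in EV (-0.69, SE 0.108, limma adjusted p = 0.00135). In both arrestin genes every OVER43 library lay below every EV library. HK2, hexokinase 2, which MYC also induces, averaged 28.9 ± 1.49 FPKM in OVER43 and 38.4 ± 0.658 FPKM in EV (SD, n = 3 each; -0.40). KLF10, a TGF-β-inducible factor, rose by 0.95 (limma adjusted p = 4.86e-06) and FASN, fatty acid synthase, by 0.46 (0.000356), so that the list's called members do not share a direction.

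**Figure D5:**
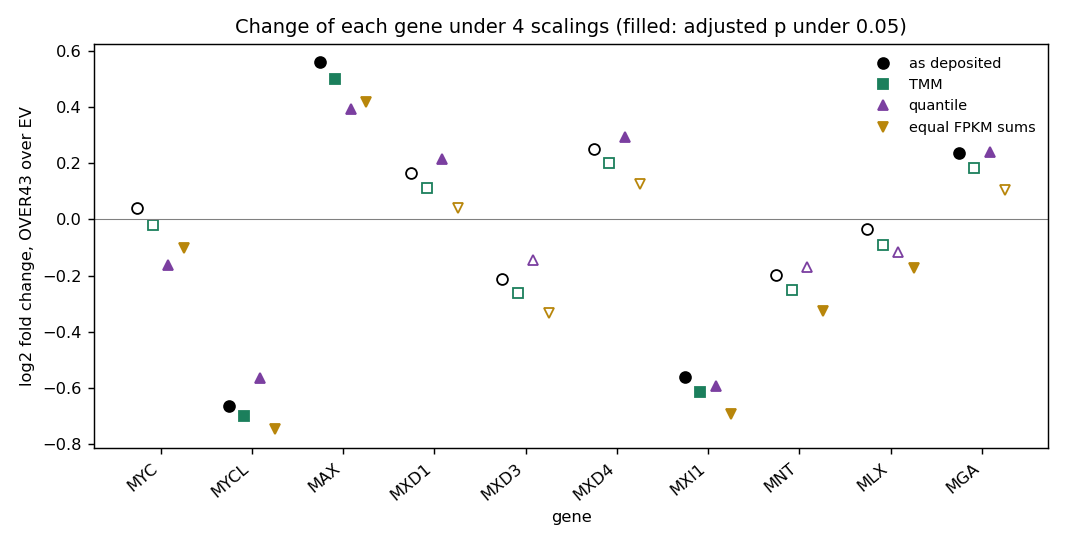
Log2 fold change of OVER43 over EV of each network gene with the values as deposited, with TMM scaling, with quantile scaling and with equal FPKM sums, filled where the limma adjusted p is under 0.05. MAX, MXI1 and MYCL are filled under all 4 scalings, MGA under 2 and MYC under 2, where it lies below 0.

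The calls of the other network genes changed with scaling, of which none to 4 were called besides MAX, MXI1 and MYCL. In all, 3 of the 10 were called with TMM, 7 with quantile scaling and 6 with equal FPKM sums. Among all tested genes, 5391 of 12215 were called with TMM, 4991 of 12205 with quantile scaling and 5446 of 12222 with equal FPKM sums. MAX ranged from 0.39 to 0.60 over the 14 alternatives tried, MXI1 from -0.69 to -0.52, and each was called in every one. MYCL ranged from -1.06 to -0.56 over 13 alternatives and was called in each, but at a filter of 5 FPKM it was not tested. MXD1 was called only with quantile scaling (adjusted p = 0.0456). MXD4 was called with quantile scaling (0.0393), without OVER43 library 1 (0.0444) and without EV library 2 (0.0249). MNT (-0.32, adjusted p = 0.0223) and MLX (-0.17, adjusted p = 0.0115) were called with equal FPKM sums, all by limma. MXD3 was called in no alternative.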

How the data were processed

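Poly(A) RNA of 6 samples was made into Illumina TruSeq libraries, per the labels' protocols, and the tables come from Cuffdiff, per the submitters' processing notes. The sources used here name neither its version nor an aligner or strandedness. The authors deposited 1 FPKM value per library for genes and isoforms; their log2 ratio of EV over OVER43, test score, p-values and q-values were also deposited, and are credited to the authors where printed. The notes name hg38, but the loci are hg19 positions. Genes that Cuffdiff did not estimate (19) were left out; an exact 0 can be a missing estimate. Columns are numbered 0 to 2 where the labels count 1 to 3, so a column is a library of its group; 0 per-library columns were left unused.

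The filter kept genes of 1 FPKM or more in 3 or more of the 6 libraries. The test was limma 3.58.1 under R 4.3.3, with its trend and robust options, on log2(FPKM + 1), two-sided, with Benjamini-Hochberg adjustment over all genes tested, and isoforms likewise. Fold changes on this scale understate the change of low genes. With 3 against 3 an exact permutation test cannot go below p = 0.1. The procedure was tested on simulated data. Members and lists were chosen with earlier results of these data known. Named are the 10 genes, GJA1, the 2 highest and 2 lowest called genes of each list, and member isoforms of at least 1 FPKM; other names were picked after their values were seen. Sequences are RefSeq promoter windows. Alternatives were scaling by TMM, quantiles or equal FPKM sums, no filter or one of 5 FPKM, a pseudocount of 0.1, limma without trend and robust, a block by column number, and leaving out each library. The labels do not say whether libraries of the same column number belong together. The correlations of their deviations were 0.02, -0.09 and 0.03, which cannot decide it. CCAT1, CCAT2 and ACACA were not analysed here. A gene of the protein stability list was left out of its counts and is not reported here.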

Additional observations from a re-analysis of the deposited data

How the results depend on the processing

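MAX, MXI1 and MYCL kept their direction and their call in all alternatives that tested them. Of all genes, 1867 were higher and 3579 lower with equal FPKM sums. With quantile scaling 7 network genes were called. MYC-induced targets called lower numbered 2 with TMM, 4 with quantile scaling and 2 with equal sums. The shares of all tested genes called lower were 21.5%, 19.9% and 29.3%. Isoforms called numbered 1896 with no filter, 1945 with the replicate block and 2545 to 3511 when 1 library was left out. Whether column numbers pair the libraries is not known, and the replicate block gave 5316 genes and 4 network genes. MYC turned to -0.018 with TMM, -0.16 with quantile scaling and -0.10 with equal sums. With the same scalings, MLX-203 turned to -0.051, -0.11 and -0.12 and MYC-205 to -0.015, -0.083 and -0.086. MYC-202 turned to -0.11 with quantile scaling and -0.061 with equal sums, and MLX-209 to -0.028 with equal sums and -0.092 with a pseudocount of 0.1. When 1 library was left out, some log2 fold changes crossed 0: MLX-202 ran from -0.34 to 0.074, MLX-203 from -0.036 to 0.090, MXD3-208 from -0.37 to 0.24, MYC-205 from -0.016 to 0.12, MAX-216 from -0.35 to 0.11, MGA-211 from -1.10 to 0.0081 and MLX-209 from -0.20 to 0.42. None of these isoforms was called, and the causes were not tested. Depth is known only approximately, and isoforms near 1 FPKM are the least precise.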
